A study of Homo sapiens with 6 samples.

Results

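The genes described here are 35 core genes of 2 kinds of multi-subunit ubiquitin ligase, the anaphase-promoting complex or cyclosome (APC/C) and the cullin-RING ligases. They were taken by name: subunits, activators and 1 inhibitor of the APC/C, and the cullins, RING subunits, adaptors, some substrate receptors and the exchange factor CAND1. All 35 were found once each, by Ensembl identifier, among 23406 features in the tables of estimated counts and of FPKM, and all 35 were among the 14071 features with enough counts to be tested. All are annotated as protein-coding in GENCODE 29, which gives the gene positions below (GRCh38).

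A ubiquitin ligase brings a substrate protein to a charged E2 enzyme so that ubiquitin is passed on to the substrate. The APC/C does this in mitosis and G1, where its activators CDC20 and FZR1 (CDH1) pick the substrates, among them the mitotic cyclins. In a cullin-RING ligase the cullin is the scaffold, a RING protein at one end holds the E2, an adaptor and a receptor at the other end hold the substrate, and the ligase is switched on when the small protein NEDD8 is joined to the cullin.

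The cells were Hep-3B (Hep3B), an established human hepatocellular carcinoma line with an epithelial form. They carried either shControl (genotype given as WT) or shNXN, a short hairpin RNA against NXN, which encodes the redox protein nucleoredoxin. The constructs came in lentiviruses packaged in 293T cells, and both groups went through 1 week of selection in puromycin at 2 µg/mL. RNA was taken on days 7, 9 and 11, with 1 library per group and day, so that each group had 3 libraries. The labels count the days once from the transfection and once from the end of selection, so their starting point is not clear, and they do not say which hairpin was used or whether the days came from separate cultures. The p-values below therefore measure the spread between these libraries.

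The estimated counts summed to between 15349382 and 16332589 per library. NXN, the targeted gene, measured 181, 138 and 143 CPM (counts scaled to the library size) in shControl on days 7, 9 and 11, and 42.7, 47.5 and 39.5 CPM in shNXN. The groups did not overlap, and the log2 fold change was -1.83 with a standard error (SE) of 0.16. By edgeR's quasi-likelihood test, Benjamini-Hochberg adjusted over all tested features, the adjusted p was 0.0378. An exact two-sided permutation test of 3 against 3 libraries cannot go below p = 0.1. Of the liver markers, AFP lay between 246 and 1129 FPKM (reads relative to transcript length and sequencing depth) and ALB between 489 and 12150 FPKM over the 6 libraries, and both were lowest in shNXN on days 7 and 9. The other 5 liver markers measured between 8.64 and 1731 FPKM. Whether these levels bear on the results below was not tested. Markers of fibroblasts, leukocytes and endothelial cells were at or near 0 (at most 1.13 FPKM for 8 of 9 genes), except CD68 at 43.6 to 69.3 FPKM. The same-day libraries of the 2 groups deviated together (correlations of 0.34 to 0.49 over features that reached a minimum summed count). The day was therefore used as a block in a second fit.

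A gene was called when its adjusted p was under 0.05. Without the day block, 4 of the 35 genes were called lower in shNXN (ANAPC4, ANAPC13, FBXO5 and ERCC8) and 0 higher, against 3.21% of all tested features called lower and 0.185% called higher by edgeR's quasi-likelihood test. At an unadjusted p under 0.05 there were 15 of the 35, against 4625 of the 14071 tested features. DESeq2 called 14, against 23.5% of all tested features. With the day block, 11 were called lower and 1 higher (CDC20), against 17% and 6.28% of all tested features. The 7 further genes called lower with the block were CDC27, CUL2, CUL3, CUL4B, CUL5, ELOC and CAND1. In bulk RNA of this kind, fewer cells that express a gene and less RNA per cell cannot be told apart.

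The number of calls rested on single libraries. Leaving out 1 of shControl day 7, shControl day 11, shNXN day 7 or shNXN day 9 left 0 members called by edgeR's quasi-likelihood test, with 12 to 15 at an unadjusted p under 0.05. The same settings called 0 of all tested features, with 2668 to 4229 at an unadjusted p under 0.05. Leaving out shControl day 9 left 1 member called, against 1.73% of all tested features. Leaving out shNXN day 11 gave 17 members, against 25.8% of all tested features. In sign, 20 of the 35 log2 fold changes were below 0 and 15 above. Their median was -0.45, or -0.50 in the block fit, beside 0.03 and 0.04 over all tested features.

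**Figure D1:**
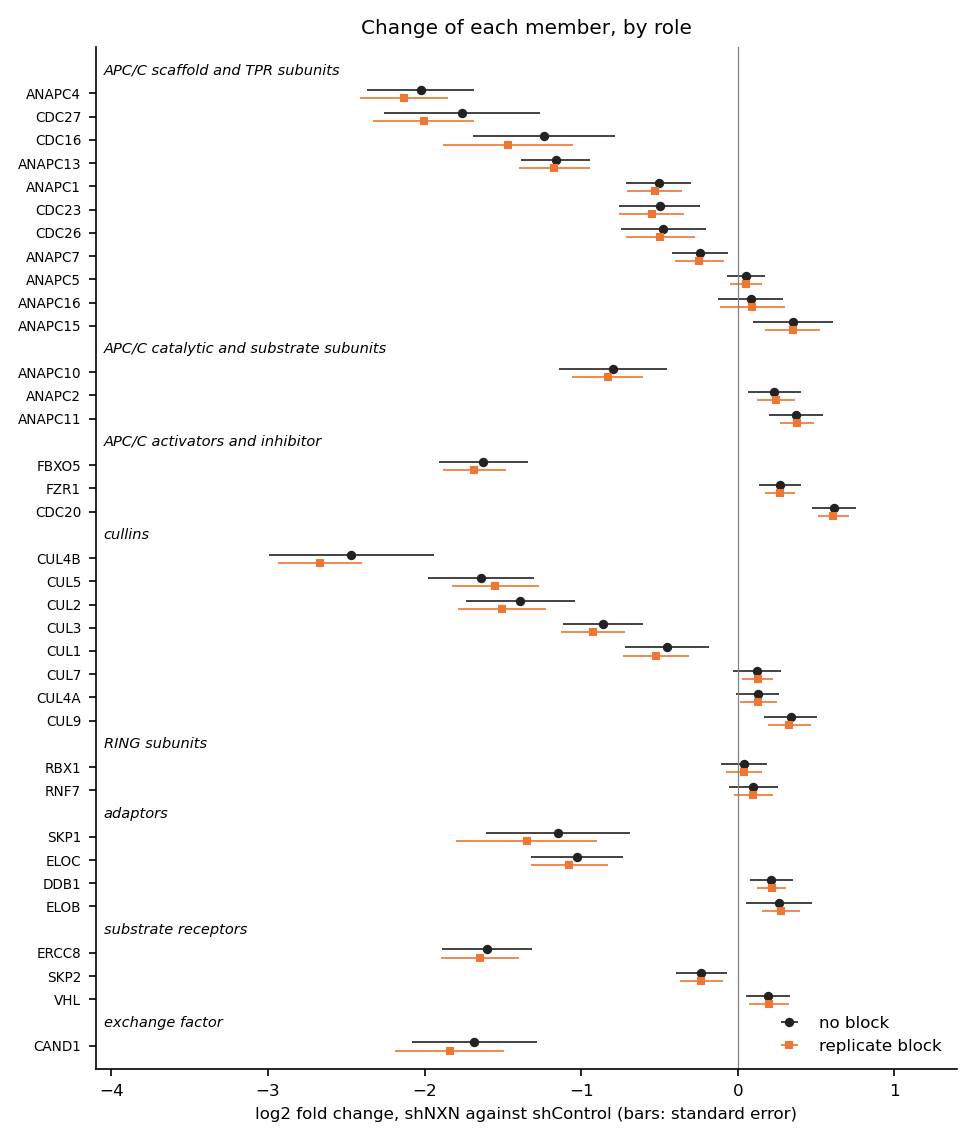
Log2 fold change of each of the 35 genes, shNXN against shControl, grouped by role, in the edgeR fit without (black circles) and with (orange squares) the day block. Bars are standard errors derived from the edgeR test of each fit, with 3 libraries per group. In most role groups some genes lie well below 0 and others close to it, and both fits give similar estimates.

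Among the 11 scaffold and TPR subunits of the APC/C, which build its frame and hold the activators, 2 were called lower, or 3 in the block fit, and none was called higher. Over all tested features 3.21% were called lower, or 17% in the block fit. The median log2 fold change of these 11 subunits was -0.50. ANAPC4 (ENSG00000053900, chr4:25377213-25418498, + strand), which joins the catalytic arm to the rest of the scaffold, measured 53.1, 56.4 and 55.6 CPM in shControl on days 7, 9 and 11. In shNXN it measured 9.55, 9.50 and 21.5 CPM, so that all 3 libraries lay below every control. The means of 55.0 ± 1.71 and 13.5 ± 6.93 CPM (SD, n = 3) give a fall of 2.03 on the log2 scale (SE 0.34, edgeR adjusted p = 0.0452, 0.0158 with the day block).

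ANAPC13 (ENSG00000129055, chr3:134477706-134486716, - strand), a small subunit that steadies the TPR arm, measured 38.0, 44.4 and 32.1 CPM in shControl and 14.9, 14.9 and 21.2 CPM in shNXN. The groups did not overlap, and the log2 fold change was -1.16 (SE 0.22, edgeR adjusted p = 0.0473). CDC27 (APC3), the TPR subunit that binds the tails of the activators, measured 95.8, 96.7 and 127 CPM in shControl and 19.4, 15.5 and 59.5 CPM in shNXN. Its fall of 1.76 on the log2 scale passed only with the day block (adjusted p = 0.077 without and 0.0214 with it, edgeR). CDC27 has 3 annotated pseudogenes, with which its reads may be shared.

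The other 8 scaffold subunits were not called in either fit. ANAPC5, a scaffold subunit with the highest mean FPKM of this group, measured 147, 165 and 144 CPM in shControl and 148, 164 and 163 CPM in shNXN. The 2 groups overlapped, and its log2 fold change was 0.05 (SE 0.12). ANAPC15, which takes part in clearing the checkpoint complex from the APC/C, was the highest at 0.35 (SE 0.26, edgeR adjusted p = 0.349), with 8.72, 8.55 and 6.26 CPM against 9.98, 12.0 and 8.06 CPM. Its groups overlapped too. The TPR subunit CDC16 had a log2 fold change of -1.24, but its 3 shNXN values ran from 26.5 to 94.2 CPM and the adjusted p was 0.118 (edgeR).

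The 3 catalytic and substrate-binding subunits did not share a direction, and none was called in either fit. ANAPC11, the RING subunit, measured 61.5, 65.0 and 47.8 CPM in shControl and 76.2, 83.0 and 66.3 CPM in shNXN. All 3 shNXN libraries lay above every control, with a log2 fold change of 0.37 (edgeR adjusted p = 0.179). ANAPC2, its cullin-like partner, had 0.23. ANAPC10, which helps to recognise the destruction box of substrates, had the lowest mean CPM of the 35 genes, a scale that does not allow for transcript length (in mean FPKM CUL9, at 7.64, was lower), with 5.38, 4.06 and 6.20 CPM in shControl and 3.10, 1.90 and 4.0 CPM in shNXN. Those groups did not overlap, at a log2 fold change of -0.80 (SE 0.35, edgeR adjusted p = 0.157).

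The activators and the inhibitor of the APC/C differed in direction. CDC20 (ENSG00000117399, chr1:43358955-43363203, + strand), the mitotic activator, measured 124, 136 and 118 CPM in shControl and 187, 219 and 172 CPM in shNXN on days 7, 9 and 11. Every shNXN library lay above every control. CDC20 rose by a log2 fold change of 0.61 in the fit with the day block (SE 0.10, edgeR adjusted p = 0.0214), and the same change gave an adjusted p of 0.0577 without it. FZR1, the G1 activator, was also higher in each shNXN library, at means of 127 ± 13.6 and 153 ± 10.0 CPM (SD, n = 3), but was called in neither fit (log2 fold change 0.27, edgeR adjusted p = 0.203).

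FBXO5 (EMI1) (ENSG00000112029, chr6:152970519-152983579, - strand), which blocks the APC/C in S and G2 phase, moved the other way. It measured 48.5, 48.0 and 57.7 CPM in shControl and 16.5, 10.7 and 22.8 CPM in shNXN. It fell by 1.63 on the log2 scale (SE 0.28), with an edgeR adjusted p of 0.0452, or 0.0150 when blocked by day. Of the 35 genes it was the only one that limma also called on log2(FPKM + 1) (adjusted p = 0.0429), against 2.13% of 12716 tested features.

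CDC20 and FBXO5 are both genes of the dividing cell, and their upstream sequences are shown because they changed in opposite directions and both hold the CHR core and CCAAT. The letters searched, on both strands, were TTTGAA (the core of the CHR element of mitotic genes), CCAAT (bound by NF-Y) and GGGCGG (bound by SP1). Capitals mark the matches. The sequences are from RefSeq (GRCh38.p14), 5′ to 3′ on the strand of the gene, and leave out bases that GENCODE places in an exon of the gene. The CDC20 window is chr1:43358731-43358954 (+ strand), from 250 to 27 bases before its start site, and the FBXO5 window is chr6:152983042-152983233 (- strand), the 192 bases before the downstream of its 2 start sites.
CDC20: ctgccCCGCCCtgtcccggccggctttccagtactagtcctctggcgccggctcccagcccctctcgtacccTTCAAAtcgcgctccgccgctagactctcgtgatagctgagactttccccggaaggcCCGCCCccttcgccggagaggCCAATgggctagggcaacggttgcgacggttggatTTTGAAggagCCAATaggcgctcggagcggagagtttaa
FBXO5: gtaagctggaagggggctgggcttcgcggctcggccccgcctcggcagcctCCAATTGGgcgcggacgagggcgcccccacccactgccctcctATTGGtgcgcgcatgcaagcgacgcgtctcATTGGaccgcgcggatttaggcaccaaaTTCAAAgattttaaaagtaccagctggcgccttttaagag

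The CDC20 window holds 2 CHR cores, 2 CCAAT boxes and 2 SP1 letters, and the FBXO5 window holds 1 CHR core and 4 CCAAT boxes, of which 2 overlap on opposite strands, and no SP1 letters. The 300-base promoter of the same FBXO5 start site also holds 1 SP1 match, upstream of the window shown. The other FBXO5 promoter, at its upstream start site, holds none of these letters. In promoters of 300 bases (250 before the start and 50 after), 12.1% of the 58 promoters found for 32 members held the CHR core, against 15.2% of all 35116 promoters. CCAAT stood in 29.3% against 34.6% and the SP1 letters in 67.2% against 45%. A gene can have several promoters that overlap, so a site can be counted more than once. The set of all promoters, from 27305 genes, was not limited to tested features, so these shares are not a like comparison. A match of letters is a description and shows no bound factor. CUL7, ELOC and VHL had no entry.

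Of the 8 cullins, 0 were called without the block by edgeR's quasi-likelihood test, where 4 had an unadjusted p under 0.05 and DESeq2 called 4. Over all tested features 4625 of 14071 had such a p, and DESeq2 called 23.5%. With the block 4 cullins were called lower (CUL2, CUL3, CUL4B and CUL5), against 17% of all tested features. The median log2 fold change of the 8 cullins was -0.66. CUL4B (ENSG00000158290, chrX:120524609-120575794, - strand), a scaffold for DDB1-based ligases, measured 80.6, 61.7 and 112 CPM in shControl and 9.25, 7.91 and 28.9 CPM in shNXN. Every shNXN library lay below every control, and the log2 fold change of -2.47 was the lowest of all 35 genes (SE 0.53, edgeR adjusted p = 0.0532 without the block and 0.0142 with it).

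CUL4A, its close paralog and the cullin with the highest mean FPKM, measured 263, 223 and 283 CPM in shControl and 263, 287 and 290 CPM in shNXN. The groups overlapped, and the log2 fold change was 0.13 (SE 0.13, edgeR adjusted p = 0.526). Over 756 aligned codons, 82.3% of CUL4A and CUL4B codons give the same amino acid but 73.1% of bases are the same. CUL4A has a coding GC content of 48.4% and CUL4B of 39.8%. The 2 sequences that follow show where the pair differs most in base content. They are the aligned stretch of 90 bases within single exons that was chosen for having the largest GC difference, on the strand of the gene, in GRCh38 with GENCODE 29 coding exons, with the differing bases in capitals. The CUL4A stretch is chr13:113209981-113210070 (+ strand) and the CUL4B stretch is chrX:120557942-120558031 (- strand).
CUL4A: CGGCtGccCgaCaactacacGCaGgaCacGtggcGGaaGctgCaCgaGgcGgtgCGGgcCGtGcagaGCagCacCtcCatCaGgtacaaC
CUL4B: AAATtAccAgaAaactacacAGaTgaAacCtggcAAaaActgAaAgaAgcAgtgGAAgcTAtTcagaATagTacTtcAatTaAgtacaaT

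In that stretch 33 of 90 bases differ while 20 of 30 codons give the same amino acid, and the GC content is 66.7% in CUL4A and 33.3% in CUL4B. CUL4A had the higher GC content in 140 of 171 such stretches, which were taken at each codon in turn and so overlap. CUL4A also has 1 annotated pseudogene, and an exon of PCID2 on the opposite strand overlaps its own.

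The stretch around the lysine that takes NEDD8 is nearly the same in both proteins. It is shown for the 5 cullins in which the letters of the stretch were found, since joining NEDD8 there is the switch common to these ligases. The search used a fixed pattern of amino acids. That pattern was not found in CUL5, CUL7 and CUL9, which does not show that they lack the lysine. Each sequence is 72 bases of the coding strand (GRCh38, GENCODE 29), and capitals mark the 6 codons of the conserved stretch that ends in the modified lysine. The CUL1 sequence joins chr7:148798657-148798677 to chr7:148799275-148799325 (+ strand). The others are chr10:35011860-35011931 (- strand) for CUL2, chr2:224478212-224478283 (- strand) for CUL3, chr13:113260646-113260717 (+ strand) for CUL4A and chrX:120530144-120530215 (- strand) for CUL4B.
CUL1: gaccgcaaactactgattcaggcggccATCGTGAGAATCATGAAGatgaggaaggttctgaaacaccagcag
CUL2: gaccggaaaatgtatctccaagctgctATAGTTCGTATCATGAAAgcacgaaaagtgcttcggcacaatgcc
CUL3: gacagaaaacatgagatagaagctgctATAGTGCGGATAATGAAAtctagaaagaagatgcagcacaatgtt
CUL4A: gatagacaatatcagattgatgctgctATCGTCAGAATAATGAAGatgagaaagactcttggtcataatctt
CUL4B: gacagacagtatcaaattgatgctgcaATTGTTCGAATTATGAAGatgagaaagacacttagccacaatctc

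In this stretch the order of CUL4A and CUL4B was the reverse of that over the whole coding sequence, with a GC content of 34.7% in CUL4A and 37.5% in CUL4B, and 13 of 72 bases differed while 23 of 24 codons gave the same amino acid. The GC content was 50% in CUL1, 45.8% in CUL2 and 37.5% in CUL3.

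CUL5 (ENSG00000166266, chr11:108008733-108107776, + strand), the scaffold of SOCS-box ligases, measured 40.1, 17.9 and 43.8 CPM in shControl and 10.5, 10.4 and 11.7 CPM in shNXN. The shControl library of day 9 was the lowest control but still above every shNXN library. CUL5 fell by 1.55 on the log2 scale with the day block (SE 0.28, edgeR adjusted p = 0.0252), while without the block the adjusted p was 0.0509. CUL2, the scaffold of VHL ligases, measured 46.0, 45.9 and 47.6 CPM in shControl and 13.0, 11.8 and 28.6 CPM in shNXN. The controls lay within 2 CPM of each other, the groups did not overlap, and the fall with the block was 1.51 on the log2 scale (edgeR adjusted p = 0.0267).

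CUL3, the scaffold of BTB-domain ligases, measured 128, 118 and 124 CPM in shControl and 56.6, 49.7 and 97.5 CPM in shNXN. Its fall was smaller, 0.92 on the log2 scale with the block (edgeR adjusted p = 0.0361), and the day 11 library of shNXN stood closest to the controls. CUL1, the scaffold of SCF ligases, was called in neither fit (log2 fold change -0.45, SE 0.27). CUL9, the cullin with the highest log2 fold change (0.34, edgeR adjusted p = 0.206), measured 24.6, 25.3 and 23.3 CPM in shControl and 33.6, 32.6 and 26.3 CPM in shNXN. Its groups did not overlap. CUL7 had a log2 fold change of 0.12 with overlapping groups.

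Neither of the 2 RING subunits was called, and their levels differed between the groups by no more than among the libraries of a group. RBX1, the RING protein of most cullins, measured 45.2, 46.5 and 50.8 CPM in shControl and 45.1, 48.1 and 53.2 CPM in shNXN, a log2 fold change of 0.04 (SE 0.15). RNF7 (RBX2), the partner of CUL5, measured 33.6, 31.3 and 36.1 CPM against 33.8, 35.2 and 39.1 CPM, a log2 fold change of 0.10 (SE 0.15). For both genes the 2 groups overlapped.

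Of the 4 adaptors, 1 was called lower with the block, against 17% of all tested features, and 0 without it (edgeR). Without the block, SKP1 and ELOC had an unadjusted p under 0.05, as had 4625 of 14071 tested features. DESeq2 called both, against 23.5% of all tested features. SKP1, which links CUL1 to F-box proteins, had the highest mean FPKM of the adaptors and measured 163, 238 and 165 CPM in shControl and 57.5, 44.4 and 154 CPM in shNXN. The groups did not overlap, but the day 11 value stood close to the controls, and the log2 fold change of -1.15 had an SE of 0.46 (edgeR adjusted p = 0.137, 0.077 with the block). ELOC and ELOB, the elongin pair that joins CUL2 or CUL5 to a receptor, differed from each other in sign. ELOC measured 43.2, 62.0 and 53.5 CPM in shControl and 20.8, 19.4 and 37.8 CPM in shNXN, which did not overlap, and fell by 1.08 on the log2 scale with the block (edgeR adjusted p = 0.0377). ELOB measured 74.2, 78.6 and 50.6 CPM against 80.7, 93.2 and 70.0 CPM, which overlapped, a log2 fold change of 0.26 (edgeR adjusted p = 0.392). ELOC has 32 annotated pseudogenes and ELOB has 4, and how the counting shared reads among them is not given in the sources used here. DDB1, the adaptor of the CUL4 ligases, had a log2 fold change of 0.21 with overlapping groups.

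Of the 3 substrate receptors, ERCC8 was called lower in both fits, against 3.21% of all tested features without the block and 17% with it. ERCC8 (CSA, ENSG00000049167, chr5:60873831-60945073, - strand), which brings CUL4 ligases to RNA polymerase stalled at DNA damage, measured 14.4, 15.4 and 14.2 CPM in shControl and 3.35, 4.60 and 6.57 CPM in shNXN. The groups did not overlap, and it fell by 1.60 on the log2 scale (SE 0.29, edgeR adjusted p = 0.0452, 0.0194 with the block). SKP2, the F-box protein that targets CDKN1B, had the highest mean FPKM of the receptors and measured 153, 118 and 128 CPM against 107, 102 and 131 CPM, which overlapped (log2 fold change -0.23, SE 0.16). VHL, the receptor for hydroxylated HIF proteins, measured 101, 83.1 and 103 CPM in shControl and 111, 113 and 104 CPM in shNXN. The highest control and the lowest shNXN library lay close together, at a log2 fold change of 0.19 (edgeR adjusted p = 0.346).

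CAND1 (ENSG00000111530, chr12:67269281-67319951, + strand), which swaps the receptor modules on cullins that carry no NEDD8, measured 177, 236 and 194 CPM in shControl and 41.7, 39.4 and 108 CPM in shNXN. All 3 shNXN libraries lay below every control. The fall of 1.84 on the log2 scale passed with the block (SE 0.35, edgeR adjusted p = 0.0274) and missed the threshold without it (log2 fold change -1.68, adjusted p = 0.0607).

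**Figure D2:**
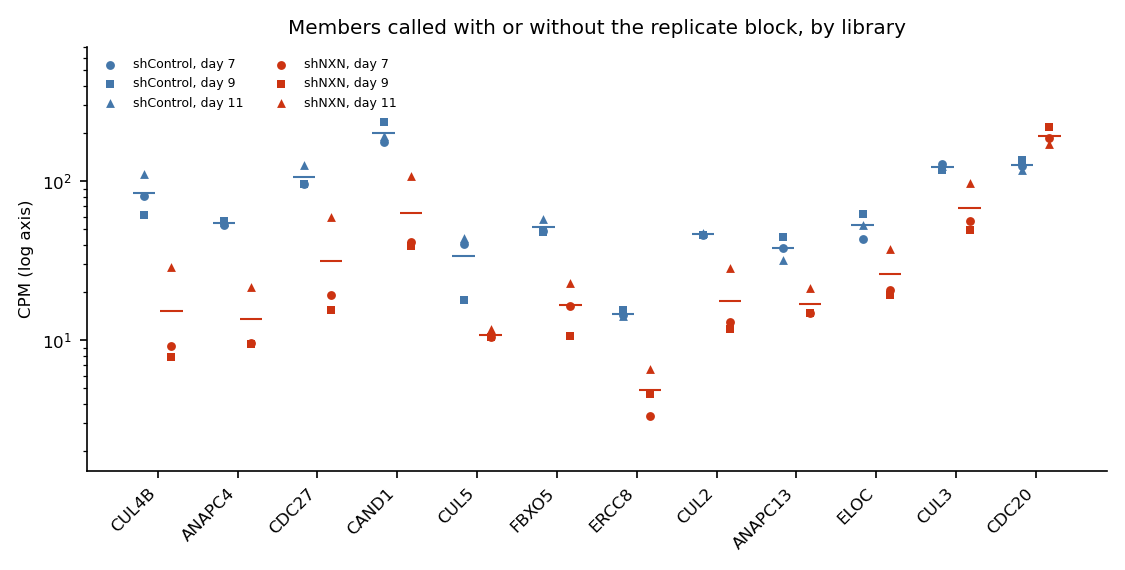
CPM of the 12 genes called in either fit, on a log axis, in each of the 6 libraries (blue for shControl and red for shNXN, with circles for day 7, squares for day 9 and triangles for day 11). Lines are means of 3 libraries. In the 11 genes that fell, the red triangle of day 11 is the highest shNXN library, and CDC20 is the gene in which all 3 shNXN libraries lie above the controls.

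Over all 35 genes, 14 had every shNXN library below every control and 5 (ANAPC11, CDC20, FZR1, CUL9 and VHL) every shNXN library above, against 21.5% and 19% of all tested features. Within days, 16 were lower in shNXN on each of the 3 days and 11 higher on each, against 32.6% and 35.8% of all tested features. With 1 library per group and day, no difference within a day was tested.

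The differences were smaller on day 11. The median log2 difference in CPM between the groups on days 7, 9 and 11 was -0.53, -0.75 and 0.00, beside 0.00, 0.00 and 0.06 over all tested features. CDC16 went from -1.77 and -2.32 on days 7 and 9 to -0.26 on day 11, and SKP1 from -1.50 and -2.41 to -0.10. CUL5 did not follow this course, with -1.89, -0.75 and -1.86, and ANAPC4, FBXO5 and CUL4B still measured -1.35, -1.32 and -1.94 on day 11. CDC20 held to 0.59, 0.69 and 0.54. The difference between days rests on the 2 libraries of day 11 and was not tested. Without them, edgeR's quasi-likelihood test called 16 of the 35 lower and 1 higher (CDC20), against 23.8% and 7.99% of all tested features, and the median was -0.75. This setting was chosen after seeing the data.

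**Figure D3:**
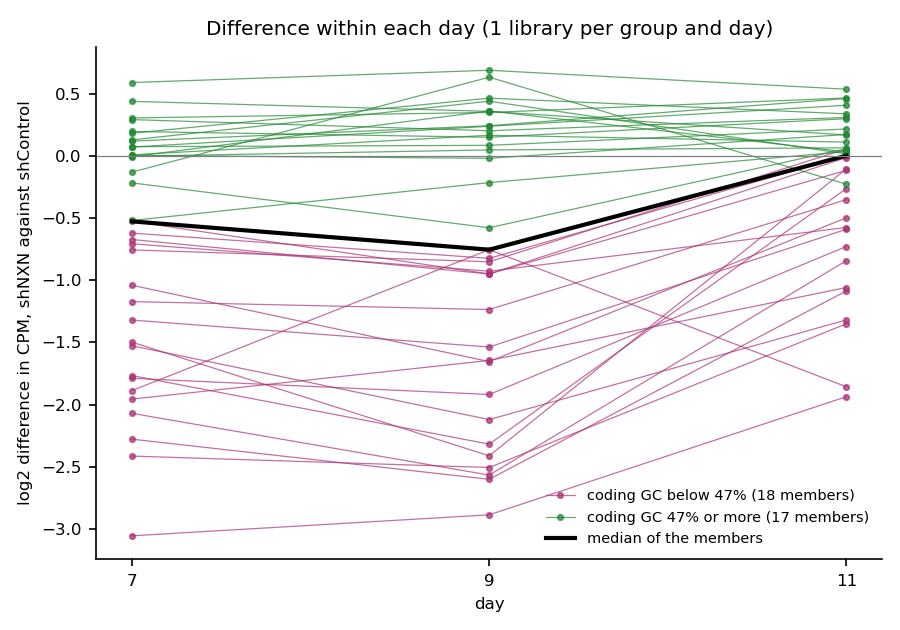
Log2 difference in CPM between shNXN and shControl within each day for the 35 genes, 1 library per group and day. Genes with a coding GC content below 47% are purple, the others green, and the black line is the median, which runs from -0.53 on day 7 to -0.75 on day 9 and 0.00 on day 11.

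The 35 genes were also compared by the base composition of their coding sequences. The log2 fold change followed coding GC content with a Spearman's rho of 0.91 over the 35 genes, and with 0.79 over 12588 tested features with a coding sequence. With the GC content of the longest transcript, rho was 0.76 over the 35 genes and 0.79 over those features. These are correlations across genes of the same libraries, and genes are not independent replicates. All 18 genes with a coding GC content below 47% (36.5% to 46.1%) had a negative log2 fold change, from -2.47 to -0.45 with a median of -1.20. Of the 17 genes above that level (48.0% to 62.9%), 15 were positive and 2 negative (ANAPC7 and SKP2), from -0.24 to 0.61 with a median of 0.19. The level of 47% was set after the values were seen, in a gap between CDC23 and ANAPC7.

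The 11 genes called lower with the block lay below 47% and CDC20 above it. The same held over the whole table: 95.3% of the 4023 features below 47% were negative, with a median of -0.89, and 49.3% of them were called with the block in either direction. At or above 47%, 26.8% of 8565 features were negative and 13.2% were called. Some subunits that work together fell on both sides of the level, such as ELOC (42.3%) and ELOB (60.7%), or ANAPC10 (40.2%) and ANAPC11 (59.5%). The paralogs CUL4B and CUL4A did so too. Other partners did not, such as ANAPC11 and ANAPC2 (62.9%), which both lay above it. Within days rho was 0.92, 0.83 and 0.88 over the 35 genes. It was 0.30 with mean CPM and -0.19 with coding length.

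When the trend of each library with coding GC content was removed (this correction was added once the values were known), the median of the 35 genes became -0.01. With the day block and this correction, edgeR's quasi-likelihood test called 1 gene lower, CUL4B, with a log2 fold change of -1.29 (adjusted p = 0.0339), against 1.4% of all tested features called lower. ANAPC4 had -0.69 (edgeR adjusted p = 0.0751), FBXO5 -0.62 (0.0753) and CDC20 0.35 (0.101). CUL2, CUL3 and CUL5 then had log2 fold changes of 0.06, 0.49 and 0.24, and ELOC had -0.03. The values depended on which GC content was used. With the block and the GC content of the longest transcript, CUL4B was again the 1 gene called (log2 fold change -1.46, edgeR adjusted p = 0.0389), ANAPC4 had -0.80 and CDC20 0.26, but FBXO5 had -0.12, CUL2 -0.56, CUL5 -0.22 and ELOC -1.19, and CUL3 had 0.31. The correction takes out every group difference that tracks GC content, and a response of the cells that follows GC content and a technical trend cannot be told apart here.

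The FPKM values gave another picture of some of these genes. On the log2(FPKM + 1) scale limma called 1 of the 35, FBXO5, against 2.13% of 12716 tested features. The median of the 35 was 0.02, where the median of all tested features was 0.15 against 0.03 for counts. The sign differed from that of the counts for 5 genes (ANAPC1, CUL5, RNF7, SKP2 and CAND1). Some falls kept their sign but were smaller in FPKM. CUL4B had a log2 fold change of -1.11 (limma adjusted p = 0.0828), ANAPC4 -0.90 (0.0612) and ERCC8 -0.63 (0.111). Among the genes called lower with the block, CUL3 (-1.80) and ELOC (-1.34) fell further in FPKM than in counts. CAND1 measured 52.8, 66.8 and 56.4 FPKM in shControl and 62.4, 62.4 and 53.6 FPKM in shNXN, which overlapped, while its CPM had fallen in every shNXN library. CUL5 measured 13.1, 10.2 and 12.3 FPKM against 16.2, 15.6 and 9.33 FPKM.

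Dividing each count's share of its library by the FPKM value gives the transcript length, in kilobases, that the authors' values imply for a gene in a library. For CAND1 it was 3.33, 3.53 and 3.44 kb in shControl and 0.687, 0.641 and 1.94 kb in shNXN. For CUL4B it was 3.61, 3.51 and 3.97 kb against 1.18, 1.14 and 1.73 kb, and CUL5 went from a mean of 2.78 to 0.852 kb and ANAPC4 from 1.87 to 0.830 kb. In these 4 genes (11.4% of 35) the log2 ratio of the mean implied lengths, shNXN against shControl, was below -1, against 3.37% of 10913 features. CUL3 moved the other way, from a mean of 2.65 to 5.39 kb, and fell more in FPKM (log2 fold change -1.80) than in counts. FBXO5 kept 1.83 and 1.82 kb, CDC20 1.41 and 1.4 kb, and RBX1 0.918 and 0.889 kb. For the genes whose implied length moved, the count and the FPKM cannot both be read as the amount of 1 transcript form, and which forms were counted was not tested.

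**Figure D4:**
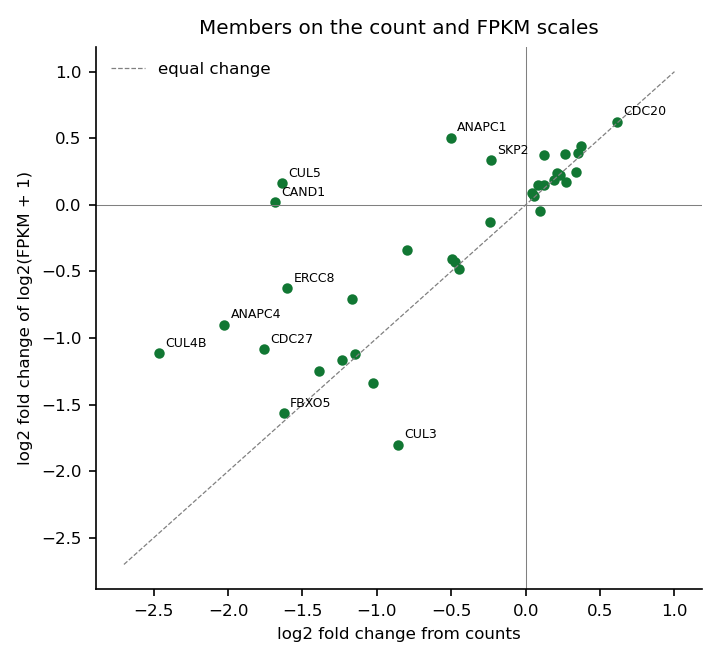
Log2 fold change from counts (horizontal, edgeR without the block) against that of log2(FPKM + 1) (vertical, limma) for the 35 genes, with a dashed line at equal change. CAND1 and CUL5 lie near 0 in FPKM but below -1.6 in counts, CUL3 lies below the line, and FBXO5 and CDC20 lie on or near it.

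Annotated copies and overlaps limit the counts further. In GENCODE 29, 10 of the 35 genes have a pseudogene of their name, 22 share exon bases with a gene on the opposite strand and 7 with another gene on the same strand. The kit's strand setting is not given in the sources used here. CUL2, CUL4B, CAND1, ANAPC4 and CDC16 are among the 9 with none of these.

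The genes that work with these ligases were read by the same fits. Of 11 genes of neddylation, the joining of NEDD8 to cullins, 2 were called lower without the block (3.21% of all tested features) and 4 lower and 1 higher with it (17% and 6.28%). DCUN1D1, a co-E3 of this step, fell from a mean of 47.3 to 12.7 CPM (log2 fold change -1.90, edgeR adjusted p = 0.0452), and DCUN1D4 fell from 75.5 ± 20.2 to 24.3 ± 9.23 CPM. UBA3, the catalytic subunit of the NEDD8-activating enzyme, fell by the block fit (log2 fold change -1.51 without the block, adjusted p = 0.0156 with it). UBE2M, the main NEDD8 E2, rose in that fit, from 124 ± 12.1 to 181 ± 9.59 CPM (edgeR adjusted p = 0.0355).

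Of 10 subunits of the COP9 signalosome, which takes NEDD8 off cullins, 0 were called without the block by edgeR. There 5 had an unadjusted p under 0.05 and DESeq2 called 3, against 4625 of 14071 tested features and 23.5%. With the block 2 were called lower and 1 higher, shares near the 17% and 6.28% of all tested features. COPS2 measured 64.5, 44.0 and 63.1 CPM in shControl and 2.68, 1.41 and 16.8 CPM in shNXN, a log2 fold change of -3.04 (adjusted p = 0.0752 without and 0.0260 with the block, edgeR). COPS8 was the other that fell with the block (log2 fold change -0.76) and COPS6 the one that rose (0.53).

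Among 28 F-box and other receptors, 4 were called lower without the block (FBXL5, FBXO11 and CRBN among them) and 11 with it. Over all tested features 3.21% and 17% were called lower. None of the 28 was called higher in either fit. Their median coding GC content was 47.2%. With the block, in either direction, 49.3% of features below 47% coding GC content were called, and 13.2% of those at or above it. CRBN, the CUL4 receptor bound by thalidomide, fell from 40.9 ± 2.61 to 14.3 ± 5.05 CPM (log2 fold change -1.51, edgeR adjusted p = 0.0452). FBXO11 fell by 1.66 and FBXL5 by 1.63 on the log2 scale. The coding GC contents of these 3 genes were 38.8% to 42.2%.

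Of 7 APC/C E2 enzymes and checkpoint inhibitors, MAD2L1 was called lower in both fits, and UBE2C and UBE2S were called higher with the block. MAD2L1, the checkpoint protein that holds CDC20, measured 50.6, 57.8 and 61.5 CPM in shControl and 19.2, 21.0 and 30.9 CPM in shNXN (log2 fold change -1.26, edgeR adjusted p = 0.0452). UBE2C and UBE2S, which start and extend ubiquitin chains on the APC/C, had log2 fold changes of 0.58 and 0.67, with every shNXN library above every control for both. The other 4 of this list were called in neither fit, with log2 fold changes of -0.56 for UBE2D1, a further E2, -0.75 for BUB1B, -0.25 for BUB3 and -0.05 for MAD2L1BP. The share called over all tested features with the block was 17% lower and 6.28% higher.

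Of 16 substrates of the APC/C, 0 were called without the block by edgeR. There 6 had an unadjusted p under 0.05 and DESeq2 called 4, against 4625 of 14071 tested features and 23.5%. With the block 3 were called higher and 2 lower, against 6.28% and 17% of all tested features. AURKB (log2 fold change 0.60), PLK1 (0.57) and TK1 (0.52, named here beyond the rule as the remaining one) rose, and TOP2A (-1.57) and KIF11 (-1.30) were those that fell. Of 8 substrates of SCF and CUL4 ligases, CDT1 (0.61) was called higher and CCNE2 (-1.42) lower with the block. That is 1 of 8 each, against 6.28% and 17% of all tested features. Without the block edgeR called 0 of the 8. There 3 had an unadjusted p under 0.05 and DESeq2 called 3, against the same 4625 of 14071 features and 23.5%.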

How the data were processed

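RNA of 6 libraries of Hep-3B cells was sequenced (SMARTER mRNA-Seq kit, per the labels), 3 with shControl and 3 with shNXN. The authors deposited estimated counts per feature, which are not whole for 15.1% to 18.8% of features in a library, and FPKM values. The aligner, the counter and their versions are not given in the sources used here. The submitters' processing notes name the mouse builds GRCm38 and mm10, although the cells are human and the features carry human Ensembl identifiers, so the build of the files is not settled, and positions here are GRCh38 from GENCODE 29. Of 20314 Ensembl identifiers 19433 had a symbol, and 3092 features were assembled loci. There were 0 columns without a sample.

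Counts were rounded, filtered by filterByExpr, scaled by TMM and tested with edgeR 4.0.16 (quasi-likelihood, Benjamini-Hochberg over 14071 features) in R 4.3.3, without and with the day as a block. The labels tie the replicate numbers to the days, and same-day libraries correlated in their deviations (0.39, 0.34 and 0.49, against -0.41 to 0.17 between days). Alternatives were DESeq2 1.42.0, scaling by RLE or by library size alone, the filter dropped or replaced by a minimum of 10 counts per library, limma 3.58.1 on log2(FPKM + 1), with a mean FPKM of at least 1 or no such filter, and on log2(FPKM + 0.1), correction for transcript GC content, and each library left out. Coding GC correction and leaving out day 11 were added after seeing the data. GC corrections entered a natural spline with 5 degrees of freedom, fitted to each library, as an offset. Coding GC content came from the longest principal coding sequence of GENCODE 29. Differences within a day used CPM + 0.5. The scripts were tested on simulated data. Every pair of libraries of a group differed by more than sampling noise (chi-square per feature 20.1 to 77.9).

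The members and lists were chosen with earlier results of these data known. Values in every library are given for members called in either fit and, in each role group, for the member with the highest mean FPKM and those with the lowest and highest log2 fold change (24 members). Genes of the related lists are named where called, at most 4 per list. One gene of these lists is not reported here.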

Additional observations from a re-analysis of the deposited data

Results flagged for a closer look

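For 8 of the 35 genes the sign of the difference between shNXN and shControl changed between days. There was 1 library per group and day, so these differences between days were not tested, and several of the values lie close to 0. On days 7, 9 and 11 the log2 difference in CPM was -0.62, -0.82 and 0.00 for CDC26, -0.75, -0.85 and 0.06 for CUL1, -0.52, -0.21 and 0.04 for SKP2, and -0.22, -0.58 and 0.06 for ANAPC7. In these 4 genes day 11 had the other sign. ANAPC16 was the reverse on day 9, with -0.13, 0.64 and -0.23. The values were 0.01, -0.02 and 0.17 for ANAPC5, 0.00, 0.36 and 0.03 for CUL4A, and 0.00, 0.05 and 0.07 for RBX1, where the day 7 values of CUL4A and RBX1 were just below 0.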

How the results depend on the processing

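The 24 members described in every library were refitted under 20 alternatives each, 480 results in all. Of these 342 kept their direction and their side of the threshold, 51 passed it where they had not, 47 no longer passed it and 40 changed sign. The number of the 35 members called was 4 without the block, 12 with the replicate block, 14 with DESeq2, 7 under RLE factors, 8 by library size only, 8 with no filter on low counts, 1 with limma on log2(FPKM + 1), 0 with limma on log2(FPKM + 0.1) or without its filter, 0 with GC correction or coding GC correction, 1 with the block and either correction, 17 without day 11, and 0 to 17 with 1 library left out. At an unadjusted p under 0.05 the settings with 0 had 9 to 15 members, and 2378 to 4499 features in all. Features called in all numbered 477 without the block, 3272 with it, 3311 with DESeq2, 826 under RLE factors, 929 by library size only, 818 with no filter, 271, 41 and 2 with the limma settings, 5 with either GC correction, 140 and 278 with the block and transcript or coding GC correction, 4519 without day 11, and 0 to 3706 with 1 library left out. The median log2 fold change of the members was 0.0229 with limma on log2(FPKM + 1), with or without its filter, 0.0233 on log2(FPKM + 0.1), -0.0101 with coding GC correction and -0.0107 with the block as well.

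NXN was -1.70 and no longer passed with limma without its filter (adjusted p = 0.0889), and ranged from -1.90 to -1.67 with 1 library left out, where 4 of 6 settings missed the threshold. The log2 fold changes that changed sign, without and with the block where 2 values are given, were as follows. With GC correction ANAPC10 was 0.39 and 0.38, CUL3 0.30 and 0.31, CUL9 -0.0183 and -0.0196, ELOB -0.11 and -0.10, and SKP2 0.56 in both. With coding GC correction ANAPC10 was 0.49 and 0.48, CUL2 0.0453 and 0.0602, CUL3 0.48 and 0.49, CUL5 0.27 and 0.24, ELOB -0.0515 and -0.0382, RBX1 -0.00967 and -0.0107, RNF7 -0.13 in both, and VHL -0.14 and -0.13. On log2(FPKM + 1), with or without the filter, CAND1 was 0.0229, CUL5 0.17, RNF7 -0.0453 and SKP2 0.34, and on log2(FPKM + 0.1) they were 0.0233, 0.17, -0.0469 and 0.34. ANAPC5 was -0.00602 without day 11, and RBX1 ranged from -0.0251 to 0.15 with 1 library left out. Beyond the GC corrections, which remove what follows GC content, the cause was not tested.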
